A study of Phaseolus coccineus with 4 samples.

Results

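Sucrose synthase and the SWEET sugar transporters were examined in the embryo proper and the suspensor of scarlet runner bean, Phaseolus coccineus, at the globular stage. The members were the soybean probe sets to which the platform annotation gave a single gene symbol, either SS or SWEET followed by a number. They came to 13 probe sets of 9 genes, out of 8677 soybean probe sets with 1 symbol. SS, a sucrose synthase, had 3 probe sets, and 8 SWEET genes had 10: SWEET13, SWEET24, SWEET28, SWEET29, SWEET34 and SWEET42 had 1 each, and SWEET17 and SWEET31 had 2 each.

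The embryo proper grows into the plant. The suspensor, its stalk, attaches it to the seed tissue around it. There were 2 samples of each, and the labels name no genotype or treatment that sets them apart. Plants of 1 cultivar, Hammond's Dwarf Red Flower, grew at 22 °C under a day of 16 h light and 8 h dark, and seeds were taken 6 days after hand pollination. Each region was cut by laser from sections of 6 µm, its RNA was amplified, and each sample had a soybean array of its own. The labels use the term biological replicates and name no plants, so a p-value here reflects the spread between these samples, which may be technical. The annotation used here held no markers chosen for either region, so the region labels were not checked against the data. Bean RNA was read by soybean probes: a weak signal need not mean a low transcript level, and which of the bean's sucrose synthases or SWEETs a probe set reads was not tested.

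Sucrose arrives in developing seeds from the mother plant and is either split in the cell or carried on. Sucrose synthase splits it with UDP into UDP-glucose, a precursor of cell walls and starch, and fructose, while invertases split it into glucose and fructose. SWEETs are membrane carriers that let sucrose or hexoses pass down their gradient, and in Arabidopsis some of them move sucrose out of the seed coat towards the embryo. The suspensor of beans is known as a feeding organ of the young embryo, with wall ingrowths typical of cells that take up solutes.

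An array's background level was set at the 95th percentile of its probe sets for Phytophthora and nematode genes, which the bean samples should not contain. This level was 881 and 873 for embryo proper replicates 1 and 2, and 925 and 1034 for suspensor replicates 1 and 2. Between 7328 and 8742 of 37593 soybean probe sets exceeded it on a given array. The 18 hybridisation spike probe sets, bacterial and phage sequences added as controls, had median signals of 46706 and 58957 with embryo proper RNA, and of 97327 and 159448 with suspensor RNA. Folds are on the log2(intensity + 16) scale, on which a change of a dim probe set appears smaller than it is.

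SS gave a higher signal in suspensor than in embryo proper by its bright probe set, the 1 of its 3 that exceeded background on every array. The embryo proper replicates read 12999.8 and 10125, and the suspensor replicates 72199.6 and 65246. Both suspensor signals lay above both embryo proper signals: the lower suspensor signal was 5.02 times the higher embryo proper signal, and the replicates lay close together in each region. The signals were 14.8 and 11.6 times the background level in embryo proper, and 78 and 63.1 times in suspensor. The log2 difference of suspensor minus embryo proper was 2.58 ± 0.31 (SE), with a 95% interval of 1.86 to 3.30, which is a 5.98-fold difference (limma, adjusted p = 0.014). Actin control probe sets, a sign of RNA quality, also moved with region. The 3' set read 13960.8 and 5246 in embryo proper against 2766 and 4375 in suspensor, and the 5' set 89.7 and 399.6 in embryo proper against 857 and 1217 in suspensor, where 1217 alone of the 5' signals exceeded background. Their part in the difference of SS, or of any other gene here, was not tested. In samples of many cells, more cells with the transcript and more transcript per cell cannot be told apart.

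The adjustment ran over all 8972 soybean probe sets that exceeded background on at least 2 arrays. Of these, 0.892% were called higher in suspensor, 1.86% higher in embryo proper and 2.75% in either direction at an adjusted p under 0.05. SS was 1 of 80 probe sets called higher in suspensor, and 35 of those 80 had a greater log2 difference. In 53.2% of all tested probe sets the regions did not overlap, as in SS. The median log2 difference over all tested probe sets was -0.18, so SS stood 2.76 above it. The gap between the replicates of SS was 0.36 on the log2 scale in embryo proper and 0.15 in suspensor, where the median gaps over all tested probe sets were 0.36 and 0.56. SS was thus as reproducible as the median probe set in embryo proper, and more so in suspensor.

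The spike signal was also higher on the suspensor arrays, by 1.25 on the log2 scale. With arrays centred on the spikes, a setting chosen after the data were seen, the SS log2 difference was 1.33 ± 0.80 (SE) and the call was lost (limma, adjusted p = 0.17). That setting moves all probe sets of an array alike, and the median of those tested became -1.43. The call was also lost without a variance trend (adjusted p = 0.056), without embryo proper replicate 1 (adjusted p = 0.14) and without embryo proper replicate 2 (adjusted p = 0.22).

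**Figure D1:**
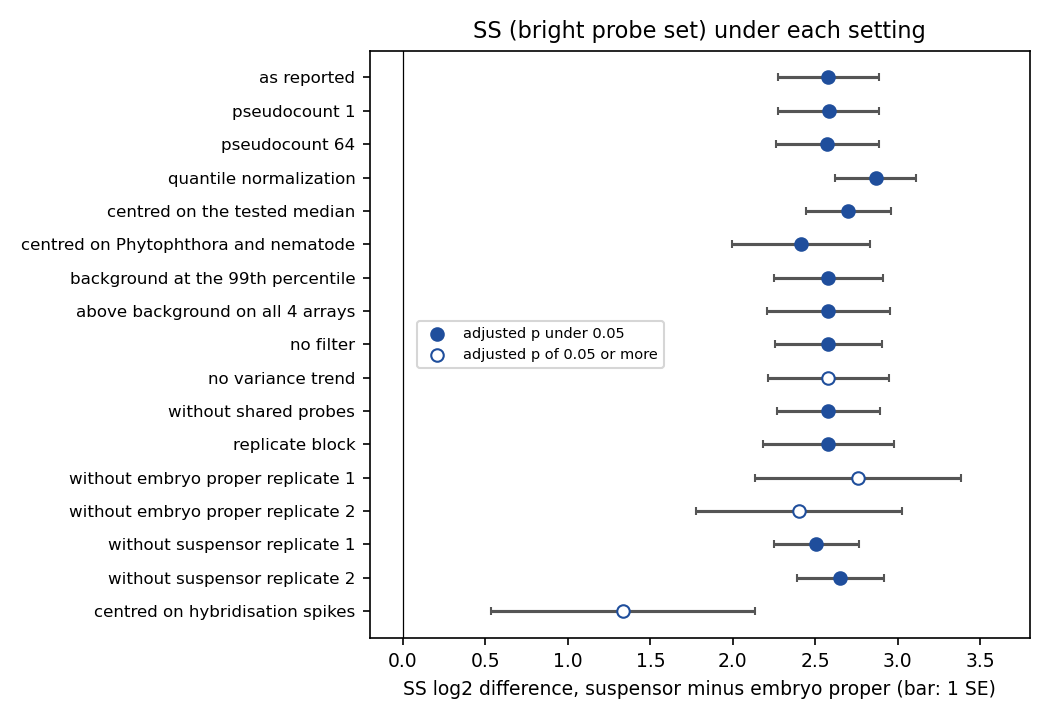
The log2 difference of SS by its bright probe set, suspensor minus embryo proper, is plotted on the horizontal axis for the reported setting and 16 alternatives, with bars of 1 SE and filled points where the adjusted p was under 0.05. The values run from 1.33 with arrays centred on the hybridisation spikes to 2.87 after quantile normalization, and 12 of the 16 alternatives kept the call.

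A second SS probe set carries a suffix that marks probes shared with other transcripts, so it may read more than 1. Its embryo proper replicates read 512 and 394, and its suspensor replicates 1248 and 1264. Both embryo proper signals were under background and both suspensor signals exceeded it. That pattern was shown by 1.12% of soybean probe sets and by 0.42% of Phytophthora and nematode probe sets. A lack of overlap between the regions follows from that pattern and adds nothing to it. The suspensor signal was at least 1.42-fold higher, a bound set by the lowest soybean signal above background on each embryo proper array. The fitted log2 difference was 1.45 ± 0.59 (SE), which missed the threshold (limma, adjusted p = 0.23).

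The third SS probe set, made from the same soybean sequence as the second but without shared probes, was dim on every array. It read 24.4 and 21.6 with embryo proper RNA, and 52.8 on both suspensor arrays. These values lay between percentiles 5.12 and 24.7 of the Phytophthora and nematode probe sets, so no fold is given. The direction and size of SS therefore rest on the bright probe set alone; the second entered the test only through the region where it is high.

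**Figure D2:**
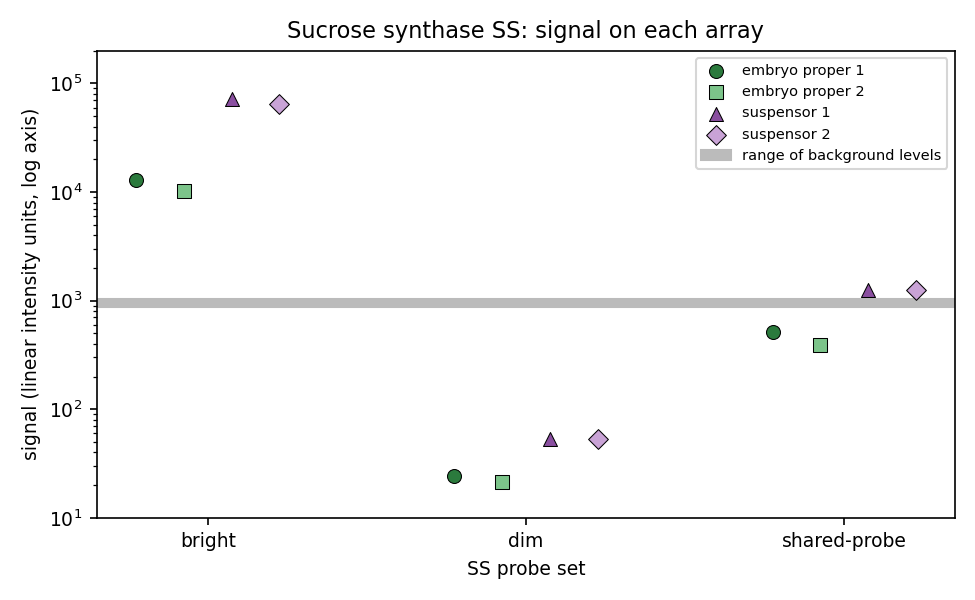
The signal of each SS probe set on each array is plotted on a log axis in linear intensity units, with the grey band at the background levels of the 4 arrays, 873 to 1034. The bright probe set is above the band on all 4 arrays, the shared-probe set with suspensor RNA alone, and the dim one on none.

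The SWEET genes were near or under background. Of 40 SWEET signals, from 10 probe sets on 4 arrays, 7 exceeded background, or 17.5%, against 21.9% of all soybean signals. Among soybean probe sets with 1 symbol, from which the members came, 27.6% of signals exceeded it. The background level itself leaves 5% of Phytophthora and nematode signals above it on each array. SWEET17, SWEET24, SWEET28 and SWEET42 exceeded background on at least 1 array, and SWEET13, SWEET29, SWEET31 and SWEET34 on none. No SWEET probe set exceeded it on all 4 arrays, which 11.9% of soybean probe sets did. On suspensor array 1, 20% of SWEET and 21.8% of soybean probe sets exceeded it, and on suspensor array 2, 10% and 19.5%. No SWEET probe set did so on both suspensor arrays, but 10 probe sets are too few to read that as a trait of SWEET genes. Of the 10 SWEET probe sets, 6 exceeded it on no array, or 60%, against 65.7% of soybean probe sets.

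SWEET28 read 927 and 922 in the embryo proper replicates, and 325 and 348 in the suspensor replicates. The replicates agreed closely and the regions did not overlap, as in 53.2% of all tested probe sets. The embryo proper signals exceeded the background level by 45.6 and 49.2 units, at percentiles 95.7 and 95.8 of the Phytophthora and nematode probe sets, and the suspensor signals were at percentiles 68.3 and 64.8. The same pattern, over background with embryo proper RNA on both arrays and with suspensor RNA on neither, was shown by 2.41% of soybean probe sets and by 0.66% of Phytophthora and nematode probe sets. The fitted log2 difference was -1.42 ± 0.83 (SE), with a 95% interval of -3.37 to 0.54, and missed the threshold (limma, adjusted p = 0.37). SWEET28 entered the test only through embryo proper, the region where it is high. No fold is given, because the bound set by the suspensor background level was under 1.

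SWEET17 exceeded background on 3 arrays by its brighter probe set, a count found in 5.46% of soybean and 1.28% of Phytophthora and nematode probe sets. The embryo proper replicates read 907 and 880, and the suspensor replicates 1778 and 610. The suspensor arrays were the highest and the lowest of the 4, so the regions overlapped. The embryo proper signals exceeded background by 25.7 and 7.38 units. The log2 difference was 0.22 ± 0.61 (SE), with a 95% interval of -1.21 to 1.65 (limma, adjusted p = 0.87). It turned to -0.54 without suspensor replicate 1, to 0.98 without suspensor replicate 2 and to -1.03 with arrays centred on the spikes, so no direction is given. The dimmer SWEET17 probe set stayed under background throughout, with signals from 30 to 378.

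SWEET42 and SWEET24 each exceeded background on 1 array and were not tested. SWEET42 read 302 and 199 in embryo proper against 958 and 737 in suspensor, of which 958 exceeded background by 32.7 units. Its suspensor signals were both above its embryo proper signals. A lack of overlap in either direction held for 53.2% of all tested probe sets, a set that does not include SWEET42. SWEET24 read 699.8 and 91.4 in embryo proper against 262 and 1404 in suspensor, so the replicates differed widely in each region and the regions overlapped. Exceeding background on exactly 1 array held for 10.4% of soybean and 7.37% of Phytophthora and nematode probe sets.

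The other SWEET genes stayed under background on every array, so no direction is drawn from their signals. SWEET29 read 609.9 and 562 in embryo proper against 822 and 643 in suspensor. SWEET34 read 122 and 129 in embryo proper against 563 and 170 in suspensor. In SWEET29 and SWEET34 the suspensor signals lay above the embryo proper signals, all of them under background. SWEET13 ranged from 202 to 806 over the 4 arrays. The SWEET31 probe sets ranged from 330.2 to 725 and from 86.7 to 971, each with its highest signal on suspensor array 2. At the 90th percentile SWEET29 and SWEET31 also exceeded background on at least 1 array, which made 6 SWEET genes. With background at the 99th percentile, SWEET17 on suspensor array 1 was the 1 SWEET signal left above it. With the level set on nematode probe sets alone, no SWEET gene exceeded it on both arrays of a region.

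**Figure D3:**
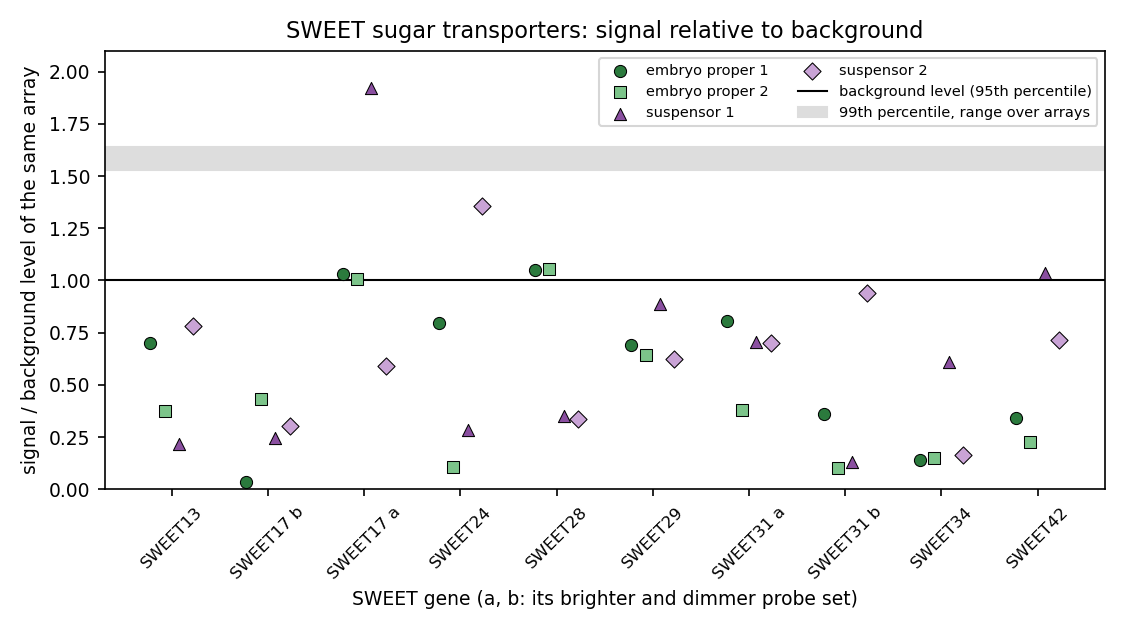
The signal of each SWEET probe set is plotted as a multiple of the background level of the same array, so that the line at 1 is the background level, and the grey band marks the 99th percentile of the Phytophthora and nematode probe sets. SWEET28 lies just above the line with embryo proper RNA, at 1.05 and 1.06, and SWEET17 on suspensor array 1 is the highest point, at 1.92.

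**Figure D4:**
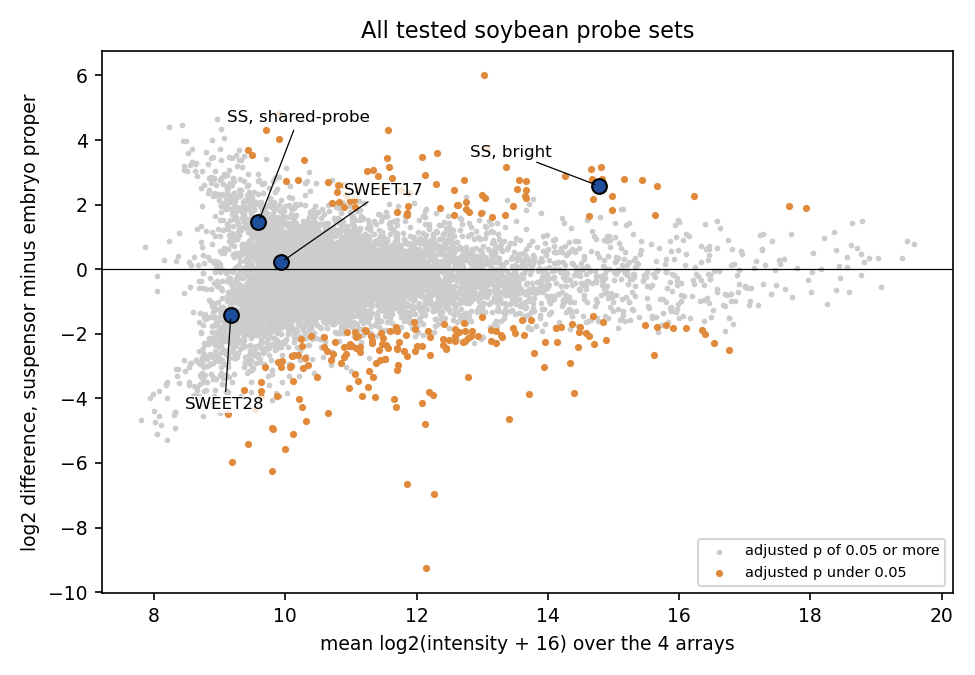
Each point is 1 of the 8972 tested soybean probe sets, with its mean log2(intensity + 16) over 4 arrays on the horizontal axis and its log2 difference, suspensor minus embryo proper, on the vertical axis. Of the 4 tested members in blue, SS by its bright probe set is the 1 with an adjusted p under 0.05, while the others lie at low mean signal, where the spread of all probe sets is wide.

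Other genes of sucrose and sugar use were taken from lists by symbol, with the brightest probe set of each gene. The lists for sucrose cleavage and synthesis, sugar transport, hexose and UDP-glucose metabolism, starch, glycolysis and fermentation, and galactinol, raffinose and inositol held 15 genes. Of these, 10 exceeded background on at least 1 array by some probe set and 7 were tested. The 10 are counted by gene over 27 probe sets, so a gene with more probe sets had more chances. Of single soybean probe sets, 65.7% exceeded background on no array and 23.9% on at least 2. Among the 7, 2 were higher in suspensor, 0 were higher in embryo proper and 5 missed the threshold, where 2.75% of all tested probe sets passed and 20.1% had an unadjusted p under 0.05. The median log2 difference of the 7 was 0.32, against -0.18 over all tested probe sets. The lists were chosen with earlier results of these data known, so neither comparison is a test. MIPS and MIPS4, counted as 2 of the 7, were read by probe sets with the same identifier stem. PK3 and PK6 were left out because their symbols are ambiguous. PK3 had a log2 difference of -0.15 (limma, adjusted p = 0.87), and PK6 had a 2.83-fold difference in favour of embryo proper (limma, adjusted p = 0.16). With both included the median of the 9 was 0.14. A list for cellulose and callose synthases matched no symbol.

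Invertase was represented by CWINV, a cell wall invertase, whose signals of 104 to 410 were under background throughout. SS was thus the sucrose-splitting enzyme with a measured level among the named genes. CIF1, an inhibitor of invertases added after the annotation was read, read 6107 and 4489 in embryo proper against 5815 and 3142 in suspensor by its brighter probe set. Its regions overlapped, with a log2 difference of -0.29 (limma, adjusted p = 0.71).

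Of 4 other sugar transporter genes, 2 were tested and neither passed, where 2.75% of all tested probe sets did. MST1, a monosaccharide transporter, exceeded background on every array, at 3997 and 3822 in embryo proper against 5129 and 4618 in suspensor. The regions did not overlap, as in 53.2% of all tested probe sets, and the log2 difference was small, at 0.32 (limma, adjusted p = 0.59). SUT1, a carrier that imports sucrose with protons, was read differently by its probe sets. The brightest, which has shared probes, gave 1568 and 584 in embryo proper against 1078 and 1032 in suspensor, a log2 difference of 0.14 (adjusted p = 0.92). Another, whose probes are not marked as shared, gave 1499.8 and 1883 in embryo proper against 78.1 and 286 in suspensor. Both suspensor signals were under background, and the difference of at least 1.71-fold in favour of embryo proper missed the threshold (limma, adjusted p = 0.14). That probe set entered the test only through embryo proper, where it is high. The remaining SUT1 probe set never exceeded background. The brighter probe set of STP1, at 318 and 859 in embryo proper against 1124 and 1002 in suspensor, exceeded it on suspensor array 1 alone, and STP on no array.

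Both list genes that passed act on products further along from sucrose. ADH2, an alcohol dehydrogenase of fermentation, read 2487 and 5005 in embryo proper against 34664 and 28782 in suspensor, 8.91-fold higher (limma, adjusted p = 0.016). MIPS4, a myo-inositol-phosphate synthase that starts inositol synthesis from glucose 6-phosphate, read 1108 and 813 in embryo proper against 4799 and 3672 in suspensor, with 813 under background. It was 4.37-fold higher (limma, adjusted p = 0.037), by a probe set with shared probes that exceeded background on 1 of 2 embryo proper arrays. The probe sets of MIPS have the same identifier stem and may not be independent of it. The brightest MIPS probe set had a log2 difference of 1.00 and missed the threshold (adjusted p = 0.20). MIPS4 was not called under Phytophthora and nematode centring, and neither gene was called when arrays were centred on the spikes, without a variance trend, or without either embryo proper array.

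UGD1, the UDP-glucose dehydrogenase that makes UDP-glucuronate from UDP-glucose, read 6969 and 8651 in embryo proper against 6239.6 and 3379.6 in suspensor by its brightest probe set. The log2 difference was -0.76 (limma, adjusted p = 0.32), and a further UGD1 probe set stood at -0.13. GAPC1, a glyceraldehyde-3-phosphate dehydrogenase, stood at -0.78 (limma, adjusted p = 0.36) by a probe set with shared probes, and its regions overlapped. The dimmer GAPC1 probe set read 225 and 466 in embryo proper against 181 and 2054 in suspensor. Of these signals, 2054 alone exceeded background. PGM, GOLS and FBA never exceeded background, and BMY2 and GAPDH did on 1 array each.

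Of 8 further sugar-related genes chosen after the annotation was read, 4 were tested and 0 passed, where 2.75% of all tested probe sets did. TRE1, a trehalase, read 1876 and 1049.6 in embryo proper against 378 and 107 in suspensor, where both signals were under background. The difference of at least 1.43-fold in favour of embryo proper missed the threshold (limma, adjusted p = 0.20). TRE1 entered the test only through embryo proper, where it is high. SNRK1, an energy-sensing protein kinase, had a log2 difference of -0.53 (adjusted p = 0.57) and PMM, a phosphomannomutase, one of 0.64 (adjusted p = 0.38). SBP2, FBP and G6PDH never exceeded background, and GBSSIa did on suspensor array 1 alone.

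**Figure D5:**
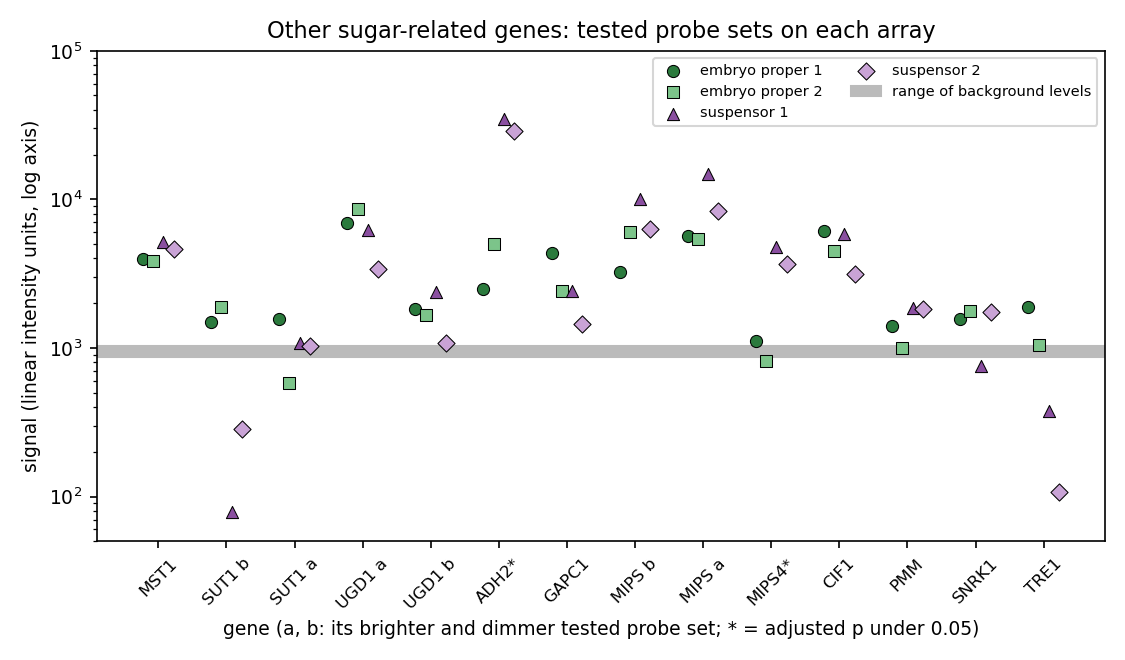
The signal on each array is plotted on a log axis for the tested probe sets of the other sugar-related genes, with the grey band at the background levels and an asterisk where the adjusted p was under 0.05. ADH2 and MIPS4 carry the asterisk, and SUT1 by its dimmer tested probe set and TRE1 drop below the band with suspensor RNA.

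The genes whose pattern was most like that of SS were taken among tested probe sets with a gene symbol, by the Euclidean distance between log2 values of the 4 arrays after each probe set's own mean was subtracted. They were FAD2-3, GASA14, MIPS4, ALDH5F2 and BZIP36, at distances from 0.41 to 0.64. All 5 had both suspensor signals above both embryo proper signals, an order that the selection by likeness to SS favours. A lack of overlap, in either direction, held for 53.2% of all tested probe sets. FAD2-3 and BZIP36 were under background with embryo proper RNA and entered the test only through suspensor, where they are high. For SWEET17 the nearest were PIP2-9, ARF, VTE2-2, UGD1 and GDH2, at 0.39 to 0.48. Each had suspensor array 2 the lowest of the 4, as in SWEET17, which the selection favours too. With 4 arrays such a likeness is a description of these samples.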

How the data were processed

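Per the labels' protocols, RNA input was about 60 and 75 ng in the embryo proper replicates, and about 106 and 137 ng in the suspensor replicates, and was amplified before labelling. Such amplification can favour transcript 3' ends. The deposited values are intensities, 1 per probe set and not logged, for which the submitters' processing notes name GCOS 1.3. The summary algorithm is not given in the sources used here, nor are detection calls. The mean deposited intensity after trimming 2% of probe sets at each end was 500.04, 500.04, 500.04 and 500.03, as scaling to a common target would give, and this scale was kept.

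Soybean probe sets over background on at least 2 of 4 arrays, 8972 of 37593, were analysed as log2(intensity + 16) in limma 3.58.1 (R 4.3.3), with a variance trend in eBayes after lmFit, and p-values were adjusted by Benjamini-Hochberg over all of them. Where a region lay under background on both arrays, the fold is a bound: the other region's mean log2 value minus the mean, over the dim arrays, of whichever was higher, the probe set's own value or the lowest soybean signal over background. The 2 arrays per region limit the precision.

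Symbols came from the platform annotation, and 0 members matched the reference table of 34063 bean genes, so no positions or sequences are given. The members and lists were chosen with earlier results of these data known. By the rule for named genes, list members that passed were named, with up to 3 more per list by smallest p; other list genes were named after their values were seen. PGIP, PK3 and PK6 matched the list patterns by letters and were left out, since these symbols also name proteins of other functions; none passed. Deviations of same-numbered arrays correlated at -0.024 across tested probe sets, and the labels give the numbers no further meaning, so the arrays were not treated as pairs.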

Additional observations from a re-analysis of the deposited data

Results flagged for a closer look

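Each region held 2 arrays, so no group was large enough to look for an outlying sample. Among the control probe sets outside the comparison, 1 of 3 for a soybean sucrose-binding protein gave a signal above background. The 3' probe set, AFFX-Gm_SucBP_3_s_at, stood at 1278 on suspensor array 1, against a background level of 925. It was below background on the other arrays, at 761 and 602 in embryo proper and 901 on suspensor array 2, and the middle and 5' probe sets were below background on all 4 arrays. The difference was not tested.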

How the results depend on the processing

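Centring on the hybridisation spikes was chosen after seeing the data; the other settings were planned. The SS log2 difference of 2.58 kept its call in 12 of 16 settings. It did not pass without a variance trend (2.58, adjusted p = 0.056), centred on the spikes (1.33, adjusted p = 0.17) or without either embryo proper array, and ran from 2.40 to 2.76 when 1 array was left out (adjusted p 0.011 to 0.22). A lone array was then assumed to vary like the other region. The cause of these losses was not tested. Since both suspensor signals exceed both embryo proper signals, leaving out 1 array cannot turn the sign. The second SS probe set passed in 0 of 13 settings (1.27 to 1.63 with 1 array left out) and SWEET28 in 0 of 14 (-1.46 to -1.37); centred on the spikes they stood at 0.20 (adjusted p = 0.86) and -2.66 (adjusted p = 0.090). SWEET17 passed in 0 of 14 and turned negative without suspensor replicate 1 (-0.54) and centred on the spikes (-1.03), with a range of -0.54 to 0.98 over arrays left out.

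The counts of calls, 80 for suspensor and 167 for embryo proper, became 195 and 237 after quantile normalization, 129 and 196 centred on the tested median, 48 and 154 under Phytophthora and nematode centring, 134 and 293 at the 99th percentile, 192 and 334 for detection on every array, 21 and 66 without a variance trend, 35 and 71 with shared probes removed, 138 and 292 under the replicate block and 13 and 2305 centred on the spikes. Leaving out 1 array gave 3 to 153 and 3 to 1054. Fewer probe sets were tested under the stricter filters; elsewhere the cause was not tested. Centring on the spikes shifted the median of all tested log2 differences, -0.18, to -1.43, while quantile normalization, tested-median and Phytophthora and nematode centring gave -0.09, -0.06 and -0.35. The replicate block changed the call of no member; with it SS kept 2.58 (adjusted p = 0.0046).

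List genes called for suspensor, 2 as reported, numbered 1 under Phytophthora and nematode centring, with detection on every array or with shared probes removed, 0 without a variance trend or centred on the spikes, and 0 to 3 with 1 array left out. Those called for embryo proper, 0 as reported, numbered 2 centred on the spikes and 0 to 1 with 1 array left out. SWEET genes over background on both embryo proper arrays, 2 as reported, were 0 at the 99th percentile and 0 with nematode probe sets alone. Those over it on at least 1 array of either region, 4 as reported, were 6 at the 90th percentile, 1 at the 99th and 4 with nematode probe sets alone.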

Other observations

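Sieve element occlusion genes, which code for proteins of phloem sieve elements, were looked up after the annotation was read, since phloem carries sucrose. Among all soybean probe sets, 65.7% exceeded background on no array. Of 8 such genes with 11 probe sets, 1 was above background on any array: SEOA, which read 295 and 315 in embryo proper against 247 and 1370 in suspensor. The others ranged from 16.7 to 947 and gave no measured level in either region.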
